A study of Mus musculus with 6 samples.

Results

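The genes described here encode proteins of the Fraser complex and the hemicentins, together with 2 proteins that act beside them, and were selected by name: Fras1, Frem1, Frem2, Frem3, Grip1, Npnt, Hmcn1 and Hmcn2. They are 8 of the 46983 genes in the deposited table. RNA-sequencing compared aortic valves from wild type C57BL/6J pups on postnatal day 2 (PND2) and from adults aged 4 months. Each age had 3 libraries. Each library was a pool of valves from 5 to 6 mice, and the ages differed in no labelled treatment or allele. The values are RPKM, in which reads are divided by the exonic length of the gene and by the total of the library. Library totals ran from 23810507 to 38994657, and a member was covered by between 6 reads (Frem3 at 4 months) and 58149 reads (Npnt at 4 months).

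Fras1, Frem1, Frem2 and Frem3 are large secreted or membrane-anchored proteins with chondroitin sulfate proteoglycan repeats. Fras1, Frem1 and Frem2 assemble with one another at the basement membrane below epithelia of the embryo, where they hold the epithelium to the tissue beneath, and Grip1 is a cytoplasmic scaffold protein needed to bring Fras1 and Frem2 to the cell surface. Loss of this complex is known to cause Fraser syndrome and blistering of the embryonic skin. Nephronectin, the product of Npnt, is a matrix ligand of integrin α8β1 and is anchored at basement membranes by the Fraser complex. Hemicentins, encoded by Hmcn1 and Hmcn2, are very long fibulin family proteins of the matrix.

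The sequences below are of the only exon of these genes that passed the test of exon usage described further on, and of the exons on both sides of it. The exon in capitals is exon 5 of transcript Npnt-203 (mm10, chr3:132914373-132914465, minus strand, 93 bases). Exon 4 lies at chr3:132917461-132917553 (93 bases) and exon 6 at chr3:132909896-132910015 (120 bases). In the GENCODE M21 annotation all 3 are wholly coding, and the lengths are 31, 31 and 40 codons. Exons 4 and 6 belong to all 6 annotated protein-coding Npnt transcripts. Exon 5 belongs to 2 of them, Npnt-203 and Npnt-204. Capitals mark the exon that was called in the test of exon usage.
Npnt exon 4: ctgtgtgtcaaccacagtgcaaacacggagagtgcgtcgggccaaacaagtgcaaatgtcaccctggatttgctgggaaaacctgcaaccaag
Npnt exon 5: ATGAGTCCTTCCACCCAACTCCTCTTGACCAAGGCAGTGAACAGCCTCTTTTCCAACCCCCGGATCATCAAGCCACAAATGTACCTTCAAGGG
Npnt exon 6: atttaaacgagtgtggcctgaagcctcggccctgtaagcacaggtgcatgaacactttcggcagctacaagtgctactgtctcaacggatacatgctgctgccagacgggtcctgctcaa

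All 8 genes passed the filter on low values (an RPKM of at least 0.1 in 3 libraries) and differed between PND2 and 4 month old aortic valves. Fras1, Frem1, Frem2, Frem3, Grip1 and Hmcn1 were lower at 4 months, and Npnt and Hmcn2 were higher. Genes were compared with limma on log2(RPKM + 0.1), with Benjamini-Hochberg adjustment over the 25903 genes tested, and a gene was called at an adjusted p under 0.05. The ages differed widely: 35.8% of all genes tested were called, 21.1% as lower and 14.7% as higher at 4 months, and the libraries of the ages did not overlap for 50.0%. Frem3 reached the minimum only at PND2, so passing the filter already required a difference. Of the other 7 members, all were called and non-overlapping, 5 as lower and 2 as higher, and their median log2 fold change was -2.93 beside -0.14 for all genes tested. With Frem3 the median was -2.58. The members were chosen with earlier results of these data known, so their counts beside those of all genes are a description and not a test. Under median scaling, the median of all genes was -0.02 and 52.7% of called genes were higher at 4 months in place of 41.1%. No member changed direction, but 7 were called, and Grip1 was not (limma adjusted p = 0.0629). Fras1, Frem1, Frem2, Frem3, Hmcn1 and Npnt are also in the study's own list of matrix transcripts that changed with age, which was drawn from these same libraries and is not independent evidence. The labels call the libraries biological replicates. In bulk tissue, fewer cells of a type and less RNA per cell cannot be told apart.

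**Figure D1:**
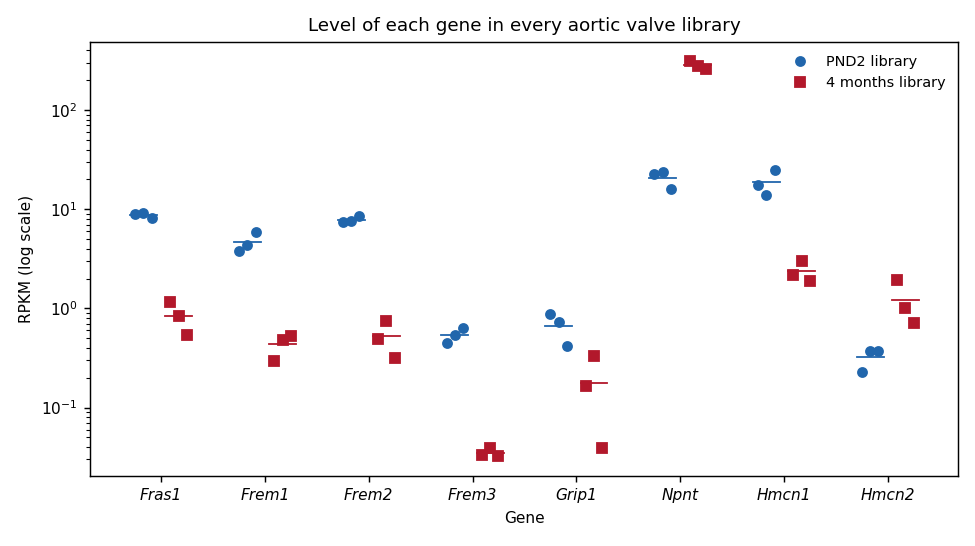
RPKM of the 8 genes (log scale) in each PND2 library (circles) and each 4 months library (squares), with a line at the mean of 3 libraries. The ages do not overlap for any of the 8 genes, and Npnt rises from a mean of 20.9 to 282 while Frem2 falls from 7.87 to 0.522.

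Fras1 (ENSMUSG00000034687, chromosome 5, 96373955 to 96784728 of mm10, plus strand) encodes the founding protein of the complex. Its RPKM was 9.00, 9.19 and 8.16 at PND2 and 1.17, 0.835 and 0.535 at 4 months. The PND2 libraries lay close together and every 4 months library was far below them. The mean fell from 8.78 ± 0.544 to 0.848 ± 0.319 (SD, n = 3 each), and PND2 was 10.4-fold higher. The log2 fold change was -3.28 (SE 0.28, limma adjusted p = 0.000245). Fras1 fell from rank 8491 to rank 13708 by mean RPKM among the 16315 protein-coding genes tested. An antisense gene, Gm42604, has 1 exon over Fras1 exons. It had 1.09 to 1.75 RPKM at PND2 and 0 to 0.172 at 4 months. The sources used here do not say whether reads were counted by strand, so those of the overlap cannot be told apart.

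Frem2 (ENSMUSG00000037016, chromosome 3, 53513938 to 53657355, minus strand) encodes the membrane-anchored partner of Fras1. The PND2 libraries had 7.39, 7.60 and 8.61 RPKM, and the 4 months libraries had 0.493, 0.754 and 0.318. The level at 4 months was 15.1-fold below PND2 by the means (7.87 ± 0.650 against 0.522 ± 0.219, SD, n = 3 each). The log2 fold change was -3.74 (SE 0.29, limma adjusted p = 0.000192), the 52nd largest fall among protein-coding genes tested.

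Frem1 (ENSMUSG00000059049, chromosome 4, 82897920 to 83052339, minus strand) encodes the secreted member of the complex. It had 3.82, 4.38 and 5.84 RPKM at PND2. It had 0.293, 0.484 and 0.531 RPKM at 4 months. Again no library of one age reached the range of the other. The log2 fold change was -3.16 (SE 0.29, limma adjusted p = 0.000342), and PND2 was 10.7-fold higher by the means of 4.68 ± 1.05 and 0.436 ± 0.126 (SD, n = 3 each).

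Frem3 (ENSMUSG00000042353, chromosome 8, 80611080 to 80695356, plus strand), the paralog of Frem1 and Frem2, was scarce at both ages. It had 0.450, 0.534 and 0.632 RPKM at PND2, from 112, 104 and 118 reads. At 4 months only 8, 6 and 6 reads remained, equal to 0.0336, 0.0395 and 0.0325 RPKM. PND2 was 15.3-fold higher by the means. The log2 fold change of -2.23 (SE 0.33, limma adjusted p = 0.00228) understates this ratio because 0.1 was added to each value, and with 1 added it was -0.57. No 4 months library reached the minimum of 0.1 RPKM, so Frem3 entered the test through PND2 alone and was not tested when a PND2 library was left out.

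Grip1 (ENSMUSG00000034813, chromosome 10, 119454034 to 120087261, plus strand), the intracellular scaffold, had the least certain change. Its RPKM was 0.874, 0.725 and 0.417 at PND2 and 0.163, 0.331 and 0.0396 at 4 months. The third 4 months library held 9 reads, and the lowest PND2 library stood near the highest one at 4 months. The log2 fold change was -1.57 (SE 0.50, limma adjusted p = 0.0438). This call was lost in 10 of 16 alternatives, and over all 16 the adjusted p ranged from 0.0141 to 0.159. It was lost without any 1 of the libraries except the second of 4 months. Without the third 4 months library the log2 fold change was -1.15 (adjusted p = 0.114).

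The hemicentins moved in opposite directions. Hmcn1 (ENSMUSG00000066842, chromosome 1, 150562524 to 150993435, minus strand) had 17.6, 14.0 and 24.9 RPKM at PND2 and 2.20, 3.03 and 1.87 at 4 months. It was among the more abundant members at PND2 and 7.96-fold lower at 4 months by the means of 18.8 ± 5.55 and 2.37 ± 0.597 (SD, n = 3 each). The log2 fold change was -2.93 (SE 0.26, limma adjusted p = 0.000305). An antisense gene, Gm20631, has 1 exon over Hmcn1 exons and had 0.886 to 1.20 RPKM at PND2 and 0.0939 to 0.233 at 4 months.

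Hmcn2 (ENSMUSG00000055632, chromosome 2, 31314415 to 31460738, plus strand) had 0.227, 0.373 and 0.376 RPKM at PND2 and 1.95, 1.01 and 0.718 at 4 months. The ages did not overlap, but the 4 months libraries were spread over a wide range. The mean rose 3.76-fold, from 0.325 ± 0.0856 to 1.22 ± 0.645 (SD, n = 3 each), and the log2 fold change was 1.55 (SE 0.41, limma adjusted p = 0.0233). The call was lost in 6 of 16 alternatives, and over all 16 the adjusted p ranged from 0.00617 to 0.121. Without the first 4 months library the log2 fold change was 1.18 (adjusted p = 0.0595), without the second it was 1.63 (adjusted p = 0.0521) and without the first PND2 library it was 1.37 (adjusted p = 0.0602).

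Npnt (ENSMUSG00000040998, chromosome 3, 132881745 to 132950291, minus strand) was the most abundant member at 4 months and 1 of the 2 that rose. It had 22.8, 23.7 and 16.1 RPKM at PND2 and 310, 280 and 257 at 4 months. Every 4 months library was above every PND2 library by a wide margin. The mean rose 13.5-fold from 20.9 ± 4.19 to 282 ± 26.5 (SD, n = 3 each), and the log2 fold change was 3.77 (SE 0.16, limma adjusted p = 2.4e-05). Among 16315 protein-coding genes tested, this was the 112th largest rise, and Npnt moved from rank 4870 to rank 272 by mean RPKM.

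The order of levels therefore differed between the ages. RPKM is per length, so levels of different genes were set beside each other within a library. Coverage along the transcripts was uneven and differed between genes, as described further on, which limits such comparisons. At PND2 the highest were Npnt and Hmcn1, whose ranges overlapped, then Fras1 and Frem2, which also overlapped, then Frem1. Grip1 and Frem3 overlapped below 1 RPKM, and Hmcn2 was the lowest. At 4 months Npnt stood alone, followed by Hmcn1 and Hmcn2, which overlapped at 1.87 to 3.03 and 0.718 to 1.95 RPKM. Fras1 overlapped with Hmcn2 and with Frem2, and Frem2 overlapped with Frem1. Grip1, at 0.0396 to 0.331 RPKM, overlapped with Frem1 and Frem2, and Frem3 was the lowest. These overlaps are of ranges over the libraries of an age. Within each 4 months library Hmcn1 was above Hmcn2, Hmcn2 above Fras1 and Fras1 above Frem2, and Grip1 was below both Frem1 and Frem2.

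Ratios between members were compared within each library, over 4 pairs, with 2-sided exact permutation tests that cannot give a p below 0.1 for 3 libraries against 3. Fras1 to Frem2 was 1.22, 1.21 and 0.949 at PND2 and 2.38, 1.11 and 1.68 at 4 months. Over the whole gene both transcripts stood near a ratio of 1 at PND2, and the ages overlapped (difference in mean log2 ratio 0.56, exact permutation p = 0.3, 0.533 adjusted over the pairs). The ratio depended on the part of the transcript. In the 5′, middle and 3′ sections described further on, the PND2 means were 3.23, 8.89 and 17.4 RPKM for Fras1. For Frem2 they were 5.20, 9.19 and 12.2 RPKM. Frem1 to Frem2 was 0.516, 0.577 and 0.679 at PND2 and 0.595, 0.641 and 1.67 at 4 months. The difference of 0.55 on the log2 scale (exact permutation p = 0.4, 0.533 adjusted) rested on the third 4 months library, and was 0.07 without it. Fras1 to Frem1 differed by 0.00 on the log2 scale (exact permutation p = 1), with SDs of 0.40 at PND2 and 1.00 at 4 months. The ages overlapped for each ratio among Fras1, Frem1 and Frem2, although each gene was 10.4 to 15.1-fold lower at 4 months. With a smallest possible p of 0.1, the test cannot decide whether their proportions changed.

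Hmcn1 to Hmcn2 was 77.8, 37.5 and 66.2 at PND2. At 4 months it was 1.13, 3.01 and 2.61. These values did not overlap, and the mean log2 ratio fell by 4.80. The exact permutation p was 0.1, the smallest possible, and 0.4 adjusted over the pairs.

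The partner list held paralogs, receptors and binding partners of these proteins. Of its 10 genes 9 were tested, 4 were higher at 4 months, 1 was lower and 4 were not called, with a median log2 fold change of 0.07 beside -0.14 for all genes tested. Itga8 and Itgb1 encode the subunits of the nephronectin receptor, integrin α8β1. Itga8 had 160, 176 and 169 RPKM at PND2 and 635, 497 and 469 at 4 months. It rose together with its ligand, by 1.65 on the log2 scale (SE 0.13, limma adjusted p = 0.000215). Itgb1 was abundant at both ages, with 718 to 768 RPKM at PND2 and 662 to 790 at 4 months, and was not called (log2 fold change -0.07). Egfl6, a relative of Npnt that also binds this integrin, fell from 0.691 to 1.39 RPKM at PND2 to 0.217 to 0.248 at 4 months (log2 fold change -1.76, SE 0.33, limma adjusted p = 0.00654). Npnt and Egfl6 thus moved in opposite directions, at very different levels.

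Fbln1 encodes fibulin-1, a shorter matrix protein of the same family as the hemicentins. It rose from 70.3 to 95.6 RPKM at PND2 to 239 to 309 at 4 months (log2 fold change 1.77, SE 0.15, limma adjusted p = 0.000252). Grip2, the paralog of Grip1, rose from 8.49 to 14.9 RPKM to 18.7 to 25.7 (log2 fold change 0.89, SE 0.22, limma adjusted p = 0.0191). Grip2 was thus above Grip1 in every library. The integrin subunit gene Itga3 also rose, by 1.03 on the log2 scale. Itgav (log2 fold change 0.07), Dag1, which encodes dystroglycan (0.04), and Col7a1, the collagen of anchoring fibrils (-0.65), were not called. Vwa2, whose product binds the Fraser complex, had at most 2 reads in a library and was not tested.

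Laminins, type IV collagens, nidogens and heparan sulfate proteoglycans form the basement membrane in which the Fraser complex is found. Of 23 such genes, 13 were lower at 4 months, 8 were higher and 2 were not called, with a median log2 fold change of -0.73. Among the lower ones, Lama1 reached the minimum of 0.1 RPKM only at PND2, so passing the filter already required a difference. Lama1 was named after its values were seen. The list was split between directions. Lamc3 rose from 1.79 to 2.61 RPKM at PND2 to 41.1 to 55.8 at 4 months (log2 fold change 4.49), and Col4a6 rose by 3.02 on the log2 scale. Lamb1 fell by 2.43 on the log2 scale, from 84.3 to 104 RPKM at PND2 to 15.5 to 20.9 at 4 months.

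**Figure D2:**
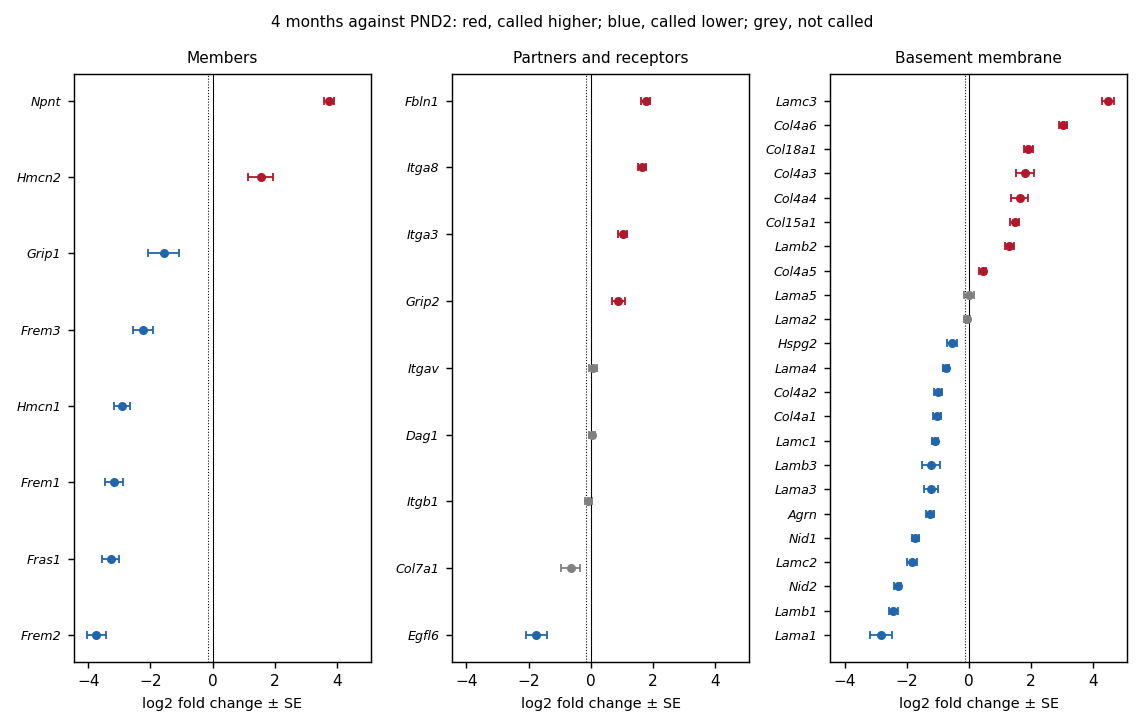
Log2 fold changes (4 months against PND2, on log2(RPKM + 0.1), bars are SE of the limma fit) of the members, the 9 tested partners and the 23 basement membrane genes. The dotted line is the median of all genes tested, at -0.14. Of the members only Npnt (3.77) and Hmcn2 (1.55) lie right of 0. The basement membrane genes run from -2.84 (Lama1, which reached the minimum only at PND2) to 4.49.

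Markers of several cell types moved with age as well. All 8 endothelial markers were lower at 4 months (summed level 486 to 674 RPKM at PND2, 259 to 274 at 4 months), as were all 8 proliferation markers (50.7 to 95.6 against 9.43 to 9.76) and 5 of 8 cardiomyocyte markers (17010 to 19270 against 6083 to 10120). All 6 smooth muscle markers were higher (7178 to 8268 against 16550 to 27660), as were 6 of 8 macrophage markers (198 to 251 against 421 to 542) and 5 of 6 adipocyte markers (69.2 to 152 against 135 to 468). Most of the adipocyte sum at PND2 was Fabp4 (63.7 to 147 RPKM), which was not called and was named after its values were seen. Cidec, a defining adipocyte marker, was at 0 in every PND2 library. Plin1, Cidec and Lep reached the minimum of 0.1 RPKM only at 4 months, so for them passing the filter already required a difference. Of the 8 fibroblast markers 2 were higher and 4 lower, and summed to 6501 to 7152 against 8033 to 10140 RPKM. The rise of this sum rested on Dcn, which went from 1016 to 1123 RPKM at PND2 to 3495 to 4499 at 4 months. Of the 7 cartilage markers tested 2 were higher and 3 lower (122 to 222 against 213 to 730). Comp alone (6.95 to 13.3 against 179 to 642 RPKM) made up most of this sum at 4 months, so the sum does not describe the list. The Fraser complex is best known from epithelia and mesothelia. Of the 8 epicardial and mesothelial markers, 1 (Msln) was lower and none was higher (219 to 316 against 165 to 225). Of the 6 epithelial markers tested 1 was higher and 2 lower (34.5 to 46.6 against 22.3 to 38.2). Among the lower ones was Krt14 (4.57 to 11.2 against 1.55 to 3.61 RPKM). Cldn4, also called lower, reached the minimum only at PND2, so the same limit holds for it. Most of the sum was Krt18 (24.5 to 27.3 against 13.3 to 24.4 RPKM), which was not called. The defining epithelial markers Epcam and Krt5 were not tested, with at most 10 and 6 reads in a library. Lep, Cldn4, Krt18, Epcam and Krt5 were named after their values were seen. The part of these cell types in the changes of the 8 genes was not tested.

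Exon values were used to see where along each transcript the reads lay. Exons were placed along 1 protein-coding transcript per gene, and the transcript was divided by length into 3 equal sections (5′, middle and 3′). Each exon was counted whole in the section that held its centre, so the bases counted differed between sections. For Frem2 the 5′, middle and 3′ sections held 5411, 2810 and 4127 bases. For Npnt they held 1494, 356 and 2769 bases. In the long transcripts, reads piled up toward the 3′ end in every library. The 5′ section of Fras1 held 9.89 to 12.2% of its reads at PND2 and 1.09 to 12.2% at 4 months, where the third library had 3 reads. For Hmcn1 this share was 7.13 to 14.7% at PND2, lowest in the second library, and 5.20 to 9.80% at 4 months. In 485 other protein-coding genes with at least 10000 exonic bases and a mean RPKM of at least 5, the median share was 23.3, 25.3 and 25.4% at PND2 and 22.4, 23.2 and 20.5% at 4 months.

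The falls of Fras1, Frem2, Frem1 and Hmcn1 were present in every section. For Fras1 the log2 fold change was -3.66 in the 5′ section, -3.72 in the middle and -3.10 in the 3′ section. For Frem2 it was -3.68, -4.03 and -3.70. For Frem1 it was -3.45, -3.23 and -3.21. For Hmcn1 it was -3.47, -3.26 and -2.75. In none of these sections did the RPKM of the ages overlap. Grip1 had log2 fold changes of -1.46 in the 5′ section, where the ages overlapped, -2.45 in the middle and -1.54 in the 3′ section. Frem3 had -2.08 in the middle and -2.82 in the 3′ section. It was left out of the 5′ section, since the centre of its long first exon lies in the middle one. The rise of Npnt was as even, at 3.83, 3.82 and 3.71. Hmcn2 rose by 1.21 in the 5′ section, where the ages overlapped, by 1.93 in the middle and by 1.51 in the 3′ section. These values were not tested.

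**Figure D3:**
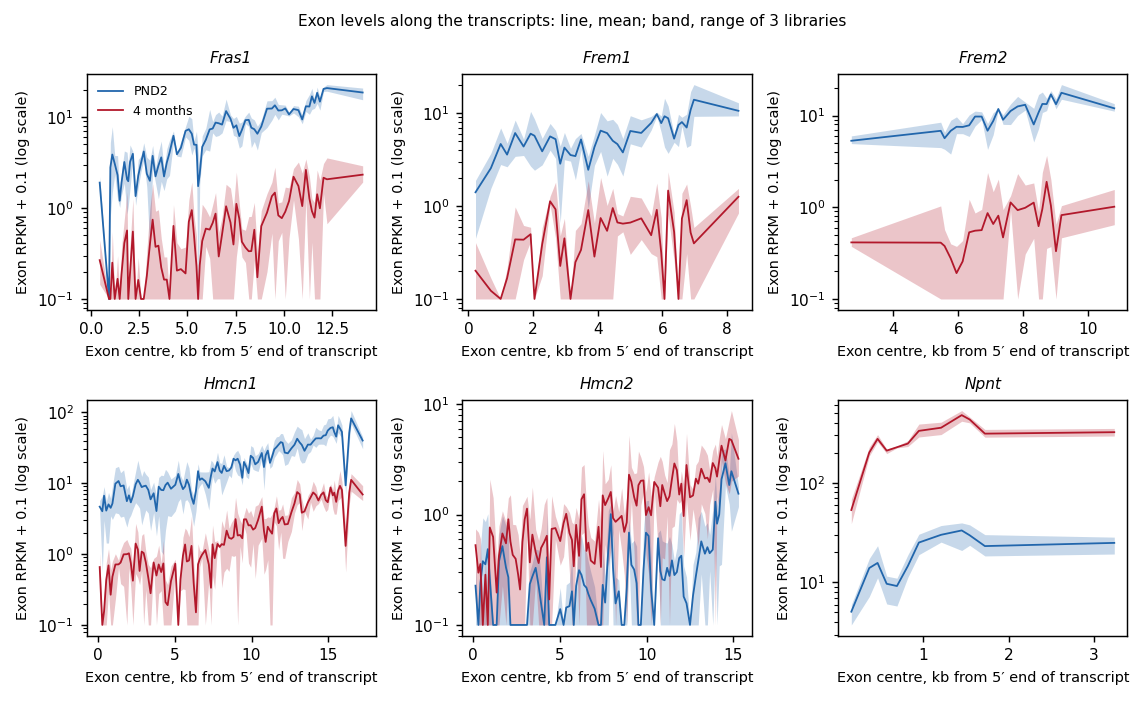
Exon RPKM plus 0.1 (log scale) against the position of the exon's centre along the transcript, for PND2 (blue) and 4 months (red). Lines are means and bands the range of 3 libraries. In the long transcripts levels tend to climb toward the 3′ end, and PND2 lies above 4 months over nearly the whole length of Fras1, Frem1, Frem2 and Hmcn1 and below it in Npnt.

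A test of exon usage asked whether an exon changed differently from the other exons of its gene. It used diffSplice of limma with precision weights on 243348 exons with at least 1 RPKM in 3 libraries, of which 0.484% were called at an adjusted p under 0.05. Of the members' exons tested, 69 were of Fras1, 46 of Frem1, 28 of Frem2, 3 of Grip1, 21 of Npnt, 113 of Hmcn1 and 25 of Hmcn2, and no exon of Frem3 passed the filter. Exon 5 of Npnt was called, and no other member exon was. An exon could pass the filter through 1 age alone. Exon 17 of Fras1, named after its values were seen, had 18, 22 and 16 reads at PND2 and 0 in each 4 months library. For such exons a change in use could hardly be called, so the lack of a call does not show that use was unchanged. The lowest adjusted p of the others was 0.127, in Fras1. With 1 RPKM as the pseudocount, 1 exon each of Fras1, Frem1 and Frem2 was called as well.

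Npnt exon 5, printed in capitals above, had 4.14, 9.51 and 2.20 RPKM at PND2, from 15, 27 and 6 reads. At 4 months it had 304, 292 and 266 RPKM, from 1056, 647 and 715 reads. It was thus 54.4-fold higher at 4 months, whereas exon 4 was 17.7-fold and exon 6 was 21.9-fold higher. Relative to the rest of the gene the exon rose by 2.13 on the log2 scale (diffSplice adjusted p = 0.000544). On simulated data this test called more exons in unchanged genes than it found planted ones, so a single call is uncertain. The exon was called in all 12 alternatives, with a difference of 1.85 to 2.53 and an adjusted p of 1.27e-06 to 0.0351 (0.00703 with voom weights on recovered reads).

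The exons on both sides were among those that the test compared with exon 5, so their values describe the call and are not further evidence for it. Exon 4 had 11.0, 23.3 and 12.5 RPKM at PND2 and 305, 266 and 258 at 4 months. Exon 6 had 11.3, 11.5 and 5.98 RPKM at PND2 and 218, 216 and 196 at 4 months. Both were above exon 5 in every PND2 library, whereas at 4 months exon 5 was above exon 6 in every library and close to exon 4. The ratio of exon 5 to the mean of exons 4 and 6 was 0.370, 0.548 and 0.239 at PND2 (mean 0.386 ± 0.155, SD, n = 3). At 4 months it was 1.16, 1.21 and 1.17 (mean 1.18 ± 0.0266, SD, n = 3). The exon was thus under-represented against its neighbours at PND2 in each library and at about their level at 4 months. The ratio to these neighbours was chosen after the values were seen and was not tested. Exons 4 and 5 are equally long but match at only 24 of 93 bases without gaps, so they are not copies of one another.

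**Figure D4:**
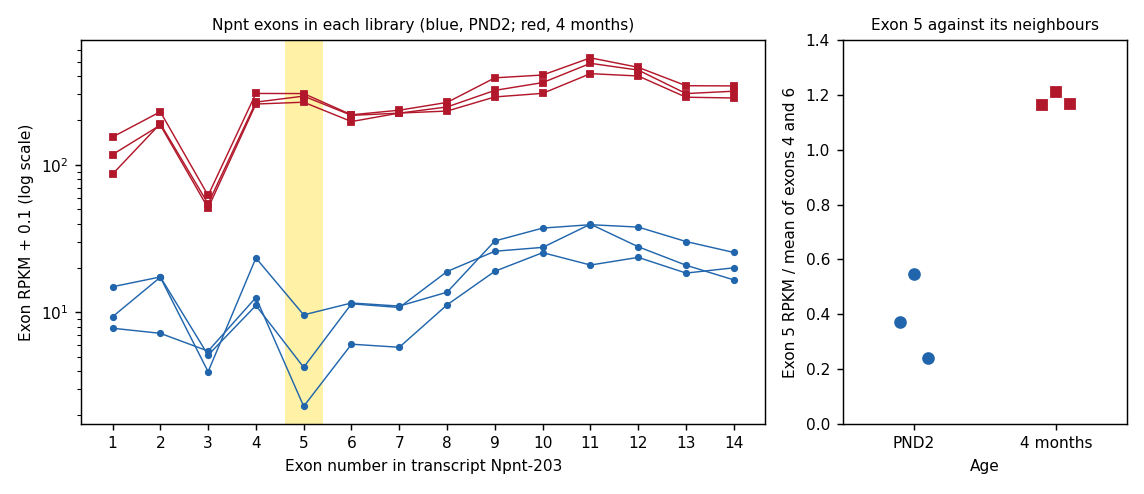
Left, RPKM plus 0.1 (log scale) of the 14 exons of transcript Npnt-203 in each library, with exon 5 shaded. Right, RPKM of exon 5 divided by the mean of exons 4 and 6. The PND2 libraries dip at exon 5 to ratios of 0.239 to 0.548, whereas the 4 months libraries lie at 1.16 to 1.21.

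Exon 3 of Npnt (51 bases) was also low beside its neighbours, but at both ages. It had 5.03, 3.86 and 5.36 RPKM at PND2 and 61.9, 54.4 and 50.8 at 4 months, and was not called (difference -0.38). Exons 6 and 7 also rose more than the rest of the gene, by 0.62 and 0.82 on the log2 scale. They were not called (diffSplice adjusted p = 0.995 and 0.595). Exon 7 had 10.7, 10.9 and 5.70 RPKM at PND2 and 234, 224 and 224 at 4 months. Exons 3 and 7 were named after their values were seen.

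For each member, the 3 protein-coding genes (mean RPKM of at least 1) whose log2(RPKM + 0.1) followed it most closely over the 6 libraries are given as a description. The 6 points form 2 ages, so the correlations mostly reflect the difference between ages and ran from 0.985 to 0.9998. They included Pigx and Sox11 for Fras1, and were Mgat2, Ccdc58 and Kcp for Frem1, and Timm9, Cpa3 and Ankrd17 for Frem2. For Frem3 they were Tmem164, Acot1 and Bmp7, and for Grip1 they were Pnpt1, Slc24a2 and Rbm25. For Hmcn1 they were Sap30, March3 and Ralgps2, and for Hmcn2 they were Cc2d2a, Rfx5 and Gucy1a3. For Npnt they were Efhd1, Rab7b and Nox4. Nox4, which encodes a NADPH oxidase, went from 1.81 to 2.55 RPKM at PND2 to 54.1 to 69.5 at 4 months, and Efhd1 from 1.83 to 3.52 to 85.0 to 105.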

How the data were processed

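Total RNA was extracted from aortic valves. The 6 libraries were made from it with the kit the paper calls TruSeq Stranded Total mRNA. The authors aligned reads to mm10 with TopHat 2.1.0, obtained counts for Ensembl features with easyRNASeq and deposited RPKM per gene and per exon (448141 exon rows, 387776 with coordinates of their own within a gene, which were used). RPKM times length and library total gave whole reads (within 0.001) for 100% of values above 0. The study's read minimum and floor are not applied in these files.

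Genes were tested with limma 3.58.1 in R 4.3.3 (eBayes with trend, 2-sided) on log2(RPKM + 0.1), and exons with diffSplice on vooma weights. Both were tested on simulated data, where the exon test called more exons in unchanged genes than it found planted ones, so single exon calls are uncertain. Alternatives covered pseudocounts, filters, scaling, the study's unequal-variance test, values floored at 10 reads, voom on recovered reads, a replicate block and each library left out. Keeping every exon ID was added after the data were seen. The members and the lists (partners, basement membrane and 10 cell type lists) were chosen with earlier results of these data known. Named were the members, all partners, up to 3 called genes of each other list by size of change among those with a mean of at least 1 RPKM at the higher age, called member exons, and 3 genes most like each member, of which 1 is not reported here. Transcripts came from GENCODE M21 (GRCm38, the build of mm10). Intervals were not formed, and read numbers cover counting error only. Python 3.11.15, numpy, pandas, scipy 1.17.1 and matplotlib were used for the rest.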

Additional observations from a re-analysis of the deposited data

How the results depend on the processing

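Across 17 alternatives the log2 fold changes of Fras1, Frem1, Frem2, Hmcn1 and Npnt kept their direction and stayed called, as did that of Frem3 in the 13 that tested it. Npnt ranged from 3.59 to 3.89 and Frem2 from -4.02 to -2.55. Grip1 lost its call in 10 of 16 and Hmcn2 in 6 of 16, and no member reversed. Of the 8 members, 5 were called under a minimum of 1 RPKM, since the other 3 were then not tested, and 5 to 7 when a library was left out. The study's unequal-variance test called 3408 genes in all in place of 9273, and 46 of the 109 list genes in place of 79. Leaving out a library gave 6301 to 8581 genes and 67 to 73 list genes. Replicate numbers did not pair the libraries (correlations of the deviations of same-numbered libraries were 0.04, -0.06 and -0.16). With the replicate block 7167 genes and 7 members were called, and Hmcn2 was not (adjusted p = 0.0602). Member exons called numbered 2 without precision weights, 4 with a pseudocount of 1, and 1 to 2 when a library was left out, in place of 1. The log2 ratio of Fras1 to Frem1 (4 months minus PND2) was near 0 and turned to -0.12 as a difference of log2(RPKM + 0.1), to -0.0700 from exon values, and ran from -0.53 to 0.47 when a library was left out. That of Frem1 to Frem2 ran from 0.07 to 0.82, of Fras1 to Frem2 from 0.29 to 0.84 and of Hmcn1 to Hmcn2 from -5.12 to -4.37. The causes were not tested.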
